A study of Mus musculus with 8 samples.

Results

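Annexins and S100 proteins are small families of calcium sensors, and 10 of their genes were read in mouse liver on 8 Illumina bead arrays: Anxa1, Anxa2, Anxa3, Anxa4, Anxa5, Anxa6, S100a4, S100a6, S100a10 and S100a11. They were chosen by gene symbol, and 11 of the 25697 probes on the array belong to them, with 2 probes for Anxa3 and 1 for each other gene. A gene entered the tests if its detection p-value, a comparison of its probe with control beads that match no transcript, stayed under 0.01 throughout at least 1 of the groups. Of the 10 genes, 9 did so, among 7257 genes in all, and 8 were detected on all 8 arrays. S100a4 failed this filter, and Anxa1 passed it only through the wild-type CCl4 arrays.

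The mice were Balb/c animals aged 2 months. The groups were IL-4/IL-13-/- mice given carbon tetrachloride (CCl4; n = 3), wild-type mice given CCl4 (n = 3), IL-4/IL-13-/- mice given vehicle (n = 1) and wild-type mice given vehicle (n = 1). IL-4/IL-13-/- mice, called knockout here, lack the genes of interleukin-4 and interleukin-13, the cytokines of type 2 immunity, and CCl4 is a solvent that liver enzymes turn into a radical that kills hepatocytes. Dose, time after CCl4 and sex are not stated in the sources used here, and the labels name no promoter or Cre that would limit the deletion to a cell type. The labels do not state whether each array had its own animal, and the p-values reflect no more than the scatter among these arrays, possibly technical.

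An annexin binds acidic phospholipids of the cell membrane when calcium rises, through a conserved core of repeats, and its N-terminal tail gives each member its own partners. S100 proteins are small dimers of EF-hand calcium-binding subunits that attach to such tails. Anxa2 and S100a10 form a heterotetramer, and Anxa1 and S100a11 form a similar complex. Both kinds of complex link membranes to each other and to actin, take part in exocytosis and in the sealing of torn plasma membranes, and, for Anxa2 with S100a10, hold plasminogen at the cell surface. S100a10 differs from its relatives in that its EF hands no longer bind calcium. In healthy liver Anxa2 is known more from bile duct and other non-parenchymal cells than from hepatocytes.

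Median raw intensities ran from 60.9 to 76.9 over the 8 arrays, and 8899 to 9821 probes per array were detected. The medians of the knockout CCl4 arrays (63.6 to 66.9) lay below those of the wild-type CCl4 arrays (68.5 to 76.9). Of 12 measured hepatocyte markers, 9 were detected on all 8 arrays, while Alb was detected on 4, Cyp1a2 on 7 and Glul on 2, and Tat on 0. The targeted genes Il4 and Il13 had 1 probe each and were detected on 0 arrays, so they give no check of the genotype. Replicate 2 of the wild-type CCl4 group stood nearer to the vehicle arrays than its group mates. Its correlation across genes was 0.923 with the knockout vehicle array and 0.918 with the wild-type vehicle array, against 0.891 to 0.899 for replicates 1 and 3. This array was the lowest of its group for 7 of the 9 tested members, and for 53.9% of the 1370 genes that rose after CCl4 and 35.1% of all tested genes.

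Anxa2 and S100a11 had the largest changes of the annexin and the S100 members, and the stretch just before the gene start is shown for these 2 genes because both hold TGANTCA, the site of the AP-1 factors that injured hepatocytes switch on early. Sequences are from RefSeq on GRCm38.p6, each 250 bases long and ending at the base before the annotated start, with TGANTCA in capitals. The Anxa2 stretch is chr9:69453433-69453682 and the S100a11 stretch is chr3:93520246-93520495, both on the + strand.
Anxa2: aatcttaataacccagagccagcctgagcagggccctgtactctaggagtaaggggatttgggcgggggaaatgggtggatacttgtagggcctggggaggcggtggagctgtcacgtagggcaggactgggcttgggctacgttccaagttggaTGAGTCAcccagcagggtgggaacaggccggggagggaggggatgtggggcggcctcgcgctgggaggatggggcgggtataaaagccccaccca
S100a11: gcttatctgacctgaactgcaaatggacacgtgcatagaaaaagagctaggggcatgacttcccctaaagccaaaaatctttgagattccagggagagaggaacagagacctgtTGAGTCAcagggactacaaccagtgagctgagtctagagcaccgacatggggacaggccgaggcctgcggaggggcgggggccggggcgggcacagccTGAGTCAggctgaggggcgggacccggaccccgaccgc
The match in Anxa2 lies 95 bases before the start, and the matches in S100a11 lie 136 and 38 bases before it, all with the same letters. RefSeq windows were at hand for 7 of the 10 members (8 windows, 2 of them for Anxa4), and TGANTCA, read on both strands, occurred in 2 of these 7. Anxa1, Anxa4, Anxa5, S100a4 and S100a6 had no match. Over all genes, TGANTCA occurred in 2113 of 27025 (7.82%). TGACGTCA, the cAMP response element, occurred in 0 of the 7 members and 1.77% of genes, and the kappaB site of the immunoglobulin kappa enhancer in 1 member, Anxa4, and 0.159% of genes. The motifs were picked with earlier results of these data known, and a match is a stretch of letters, not shown binding. Anxa3, Anxa6 and S100a10 were not searched.

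CCl4 was compared with vehicle to ask which members responded to injury, as the mean of the responses in both genotypes. The liver after CCl4 had more RNA of 9 tested members, from S100a11, 16.8-fold, to Anxa6, 1.38-fold. All 8 members detected on every array rose, beside 16.6% of the 5700 genes detected on every array. With Anxa1 the count was 9 of 9, beside 18.9% of all 7257 tested genes. Over the 8 members the median log2 difference was 2.28, beside -0.01 over the 5700 genes. Values below are normalized log2 intensities, in replicate order 1, 2, 3, and levels of different genes cannot be set against each other because each has its own probe. Differences are log2, CCl4 minus vehicle, with limma's standard error (SE) and Benjamini-Hochberg adjusted p over all tested genes. In whole liver, fewer cells of a type and less RNA per cell cannot be told apart.

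**Figure D1:**
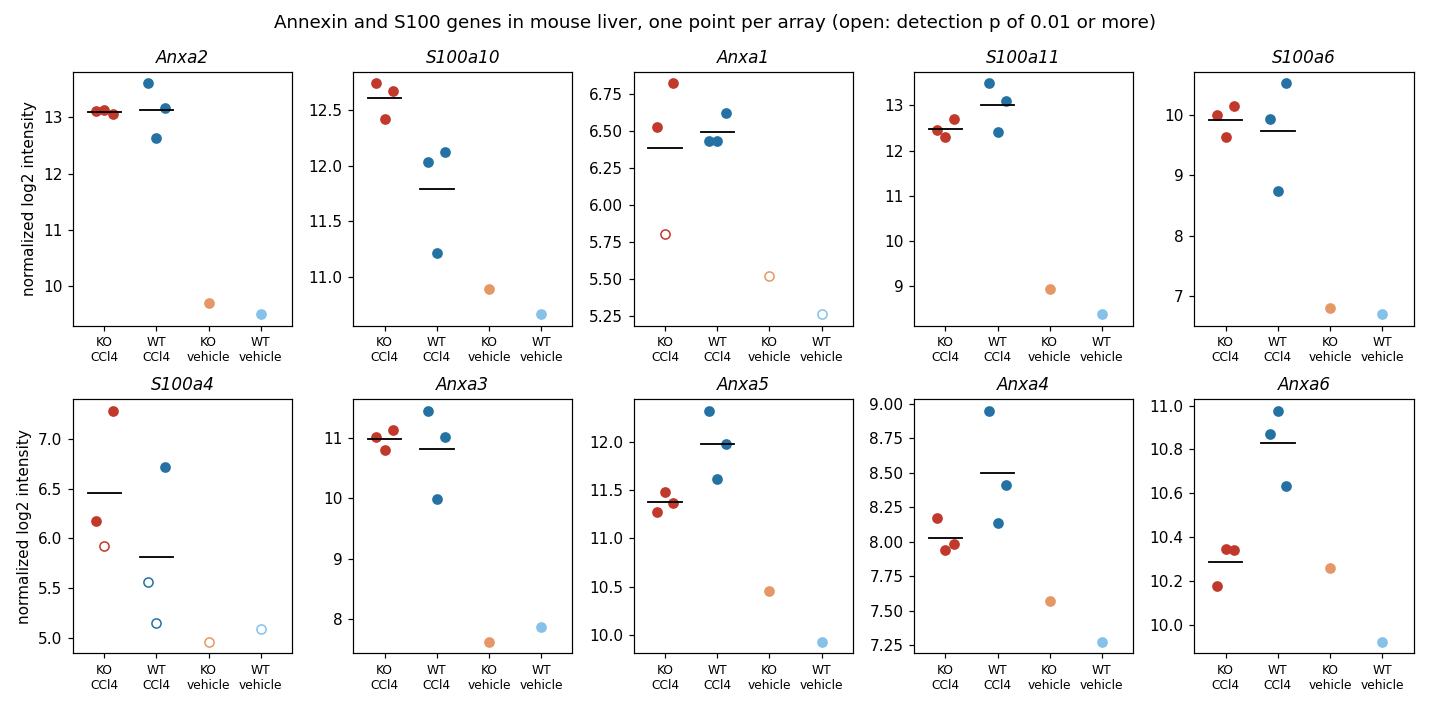
Normalized log2 intensity (vertical axis, its own range in each panel) of the 10 annexin and S100 genes, with 1 point per array for knockout CCl4, wild-type CCl4, knockout vehicle and wild-type vehicle. Lines are the means of 3 arrays, and open points had a detection p of 0.01 or more. Anxa2 lies at 12.64 or more on the CCl4 arrays and at 9.70 or less on the vehicle arrays, while Anxa6 of the knockout CCl4 arrays lies around its vehicle value.

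Anxa2, which tethers vesicles to the plasma membrane and organises actin beneath it, was at 13.12, 13.12 and 13.05 in knockout livers after CCl4 and at 13.61, 12.64 and 13.17 in wild-type livers after CCl4. It was at 9.70 in the knockout vehicle liver and 9.50 in the wild-type vehicle liver. Every CCl4 array exceeded both vehicle arrays by nearly 3 or more log2 units, and Anxa2 rose by 3.52 ± 0.22 (limma adjusted p = 7.05e-07), an 11.5-fold change and the 32nd largest increase among the 7257 genes. Its partner S100a10 was at 12.73, 12.42 and 12.67 in knockout livers after CCl4 and at 12.03, 11.21 and 12.12 in wild-type livers after CCl4, against 10.90 in the knockout and 10.67 in the wild type after vehicle. S100a10 was thus higher on every CCl4 array, with the knockout arrays above the wild-type ones, but its rise of 1.41 ± 0.23 (adjusted p = 0.000748, 2.66-fold) was smaller than that of Anxa2. The difference between the responses of these 2 genes was not tested.

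S100a11 showed the largest change of the members, and ranked 12th of 7257. It was at 12.45, 12.29 and 12.70 in knockout livers after CCl4 and at 13.49, 12.41 and 13.11 in wild-type livers after CCl4, against 8.95 in the knockout and 8.39 in the wild type after vehicle. No CCl4 array came near a vehicle array, and the rise was 4.07 ± 0.25 (limma adjusted p = 5.88e-07). Its partner Anxa1, the anti-inflammatory annexin that glucocorticoids induce, was dim throughout. It was at 6.53, 5.81 and 6.82 in knockout livers after CCl4 and at 6.43, 6.44 and 6.62 in wild-type livers after CCl4, against 5.52 in the knockout and 5.26 in the wild type after vehicle. Its probe was not well above background in the vehicle livers (detection p 0.0426 in the knockout and 0.0952 in the wild type) nor on knockout CCl4 replicate 2 (0.0188). Anxa1 was higher after CCl4 by 1.05 ± 0.23 (limma adjusted p = 0.00466), and its fold has only a lower bound, at least 1.27-fold higher. Such a bound sets the CCl4 mean against the lowest signal among detected probes. The offset of 16 added after background correction makes folds of dim probes too small.

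S100a6, or calcyclin, which cycling and mesenchymal cells express, was at 9.999, 9.63 and 10.14 in knockout livers after CCl4 and at 9.93, 8.75 and 10.52 in wild-type livers after CCl4, against 6.81 in the knockout and 6.71 in the wild type after vehicle. All CCl4 arrays stood clear of the vehicle arrays, though the wild-type CCl4 arrays were widely spread (SD 0.90, n = 3), and S100a6 rose by 3.07 ± 0.35 (limma adjusted p = 8.02e-05, 8.42-fold). S100a4, or fibroblast-specific protein 1, a marker used for fibroblasts and for a subset of macrophages, was at 6.17, 5.92 and 7.28 in knockout livers after CCl4 and at 5.57, 5.15 and 6.72 in wild-type livers after CCl4. It was at 4.97 in the knockout and 5.10 in the wild type after vehicle, and was detected on 2 of 3 knockout CCl4 arrays, 1 of 3 wild-type CCl4 arrays and 0 vehicle arrays. Replicate 3 was the brightest in each CCl4 group. With no filter on probes, over 16593 genes, its difference was 1.10 ± 0.49 (limma adjusted p = 0.214), so a change was not called.

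Anxa3, an annexin that progenitor cells and several tumours express, was at 11.02, 10.79 and 11.13 in knockout livers after CCl4 and at 11.44, 9.99 and 11.01 in wild-type livers after CCl4, against 7.64 in the knockout and 7.87 in the wild type after vehicle. It rose by 3.15 ± 0.30 (limma adjusted p = 2.00e-05, 8.85-fold). Its second probe gave 3.02 ± 0.30. Anxa5, which binds phosphatidylserine exposed on dying cells, was at 11.27, 11.48 and 11.36 in knockout livers after CCl4 and at 12.32, 11.61 and 11.98 in wild-type livers after CCl4, against 10.46 in the knockout and 9.93 in the wild type after vehicle. The CCl4 arrays did not overlap with the vehicle arrays, and Anxa5 rose by 1.48 ± 0.19 (adjusted p = 0.000161, 2.79-fold). Without the wild-type vehicle array the value is the knockout response alone, 0.92 (adjusted p = 0.0280).

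Anxa4, an annexin of epithelial membranes, was at 8.17, 7.94 and 7.98 in knockout livers after CCl4 and at 8.95, 8.14 and 8.41 in wild-type livers after CCl4, against 7.57 in the knockout and 7.28 in the wild type after vehicle. It rose by 0.84 ± 0.21 (limma adjusted p = 0.00795, 1.80-fold). Anxa6, which has a doubled core and regulates membrane cholesterol and endocytosis, was at 10.18, 10.35 and 10.34 in knockout livers after CCl4 and at 10.87, 10.98 and 10.63 in wild-type livers after CCl4, against 10.26 in the knockout and 9.92 in the wild type after vehicle. It was the only tested member whose CCl4 and vehicle arrays overlapped, and its rise of 0.47 ± 0.16 (adjusted p = 0.0372, 1.38-fold) was the smallest. The other 8 were higher without overlap, beside 19% of all tested genes. Without the wild-type vehicle array, Anxa4 and Anxa6 were no longer called (0.46, adjusted p = 0.257, and 0.03, adjusted p = 0.943), nor was Anxa1 (0.87, adjusted p = 0.0744). Anxa6 was also lost without any 1 of 3 CCl4 arrays, wild-type replicate 1 (adjusted p = 0.0575), knockout replicate 2 (0.0729) or knockout replicate 3 (0.0696), and without the knockout vehicle array its value was 0.90.

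The response was then taken in each genotype, 3 CCl4 arrays against 1 vehicle array, to ask whether it needed the type 2 cytokines. In the knockout 6 of 9 members rose (beside 13% of all tested genes), and in the wild type 9 of 9 (beside 12.4%). Of the 8 members detected on all arrays, 6 rose in the knockout, beside 10.7% of the 5700 genes, and 8 in the wild type, beside 9.77%. The medians of these 8 were 2.41 in the knockout and 2.49 in the wild type. S100a11 rose 11.5-fold in the knockout (3.53 ± 0.35) and 24.5-fold in the wild type (4.62 ± 0.35). Anxa2 rose by 3.40 ± 0.31 in the knockout and 3.64 ± 0.31 in the wild type, Anxa3 by 3.34 ± 0.42 in the knockout and 2.95 ± 0.42 in the wild type, and S100a6 by 3.12 ± 0.50 in the knockout and 3.03 ± 0.50 in the wild type. These 4 members thus had differences near 3 or above in either genotype.

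The other 5 members had smaller differences. Anxa5 rose by 0.92 ± 0.27 in the knockout (limma adjusted p = 0.0280) and 2.04 ± 0.27 in the wild type. S100a10 rose by 1.71 ± 0.33 in the knockout (adjusted p = 0.00390) and 1.12 ± 0.33 in the wild type (0.0291). The remaining 3 members were called in the wild type alone. Anxa1 was at 0.87 ± 0.33 in the knockout (adjusted p = 0.0744) and 1.24 ± 0.33 in the wild type (0.0191, at least 1.28-fold higher). Anxa4 was at 0.46 ± 0.29 in the knockout (0.257) and 1.22 ± 0.29 in the wild type (0.0111). For Anxa6 the difference was 0.03 ± 0.22 in the knockout (0.943) and 0.90 ± 0.22 in the wild type (0.0134). Several of these calls rest on single arrays. In the wild type, S100a10 lost its call without CCl4 replicate 1 (adjusted p = 0.0782) or 3 (0.0676) and Anxa1 without replicate 3 (0.0504). In the knockout, Anxa5 lost its call without CCl4 replicate 2 (0.0687) or 3 (0.0578), and Anxa1 gained one without replicate 2 (1.16, 0.0117).

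**Figure D2:**
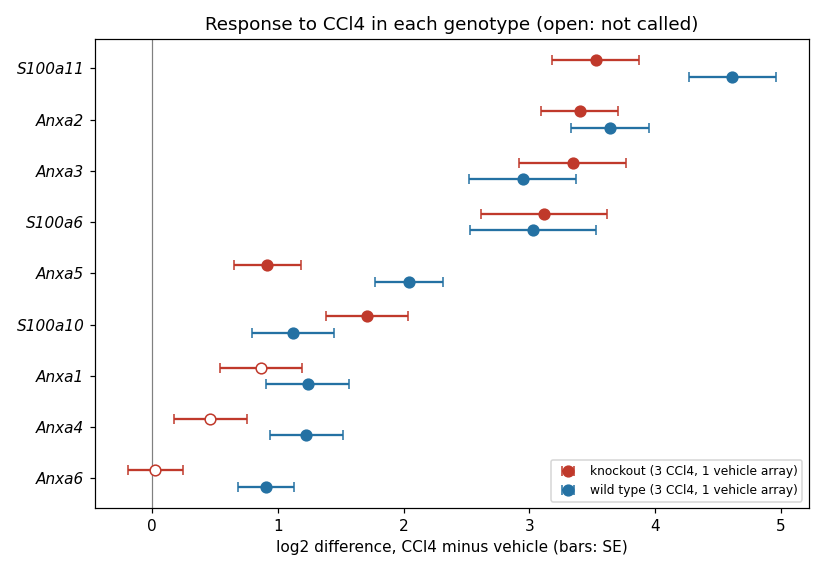
Log2 difference of CCl4 minus vehicle (horizontal axis) for the 9 tested members in the knockout (red) and the wild type (blue), each from 3 CCl4 arrays and 1 vehicle array. Bars are SE and open points were not called. S100a11, Anxa2, Anxa3 and S100a6 lie between 2.95 and 4.62 in both genotypes, and Anxa6 lies at 0.03 in the knockout and 0.90 in the wild type.

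The difference of the 2 responses itself was tested as an interaction, and 0 of 9 members passed it with limma, beside 0.358% of all tested genes. Knockout minus wild type, the response differed by -1.12 ± 0.38 for Anxa5 (adjusted p = 0.152), -1.09 ± 0.49 for S100a11 (0.248), -0.88 ± 0.31 for Anxa6 (0.167) and -0.76 for Anxa4 (0.325). The values were 0.59 for S100a10 (0.504), 0.40 for Anxa3, -0.37 for Anxa1, -0.24 for Anxa2 and 0.09 for S100a6. The lone vehicle arrays enter these values directly, and knockout minus wild type on them was 0.57 for S100a11, 0.52 for Anxa5, 0.34 for Anxa6 and 0.29 for Anxa4.

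Knockout and wild type were next compared after CCl4, 3 arrays against 3, the replicated comparison of the design. With limma, 0 of 9 members passed, beside 6.49% of all tested genes. The arrays of the genotypes did not overlap for 3 members, 1 higher (beside 14% of all tested genes) and 2 lower (beside 16.3%) in the knockout. S100a10 was the one that was higher, averaging 12.61 ± 0.17 in knockout livers and 11.79 ± 0.50 in wild-type livers (SD, n = 3 each). The difference was 0.82 ± 0.23 with a 95% interval of 0.31 to 1.32 (adjusted p = 0.0590). Anxa5 averaged 11.37 ± 0.10 in knockout livers and 11.97 ± 0.36 in wild-type livers, a difference of -0.60 ± 0.19 (interval -1.02 to -0.18, adjusted p = 0.0834). Anxa6 averaged 10.29 ± 0.10 in knockout livers and 10.83 ± 0.18 in wild-type livers, a difference of -0.54 ± 0.16 (interval -0.88 to -0.19, adjusted p = 0.0646).

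**Figure D3:**
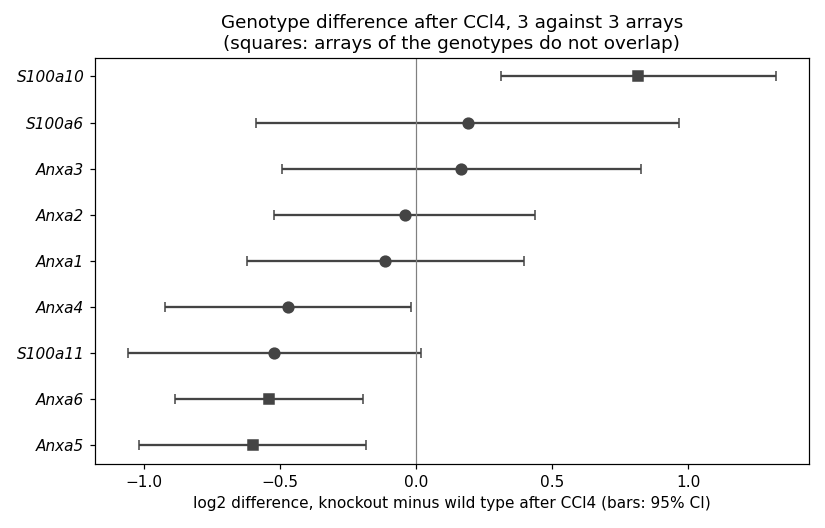
Log2 difference of knockout minus wild type after CCl4 (horizontal axis) for the 9 tested members, from 3 arrays against 3, with 95% intervals as bars. Squares mark members whose arrays did not overlap between genotypes: S100a10 at 0.82, Anxa6 at -0.54 and Anxa5 at -0.60. No member passed the adjusted threshold.

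The other 6 tested members overlapped between genotypes. Anxa4 differed by -0.47 (interval -0.92 to -0.02, just short of 0, adjusted p = 0.181) and S100a11 by -0.52 (-1.06 to 0.02, 0.214). Intervals for the rest spanned 0 and were wide, with -0.04 for Anxa2 (-0.52 to 0.44), -0.11 for Anxa1 (-0.62 to 0.40), 0.17 for Anxa3 (-0.49 to 0.83) and 0.19 for S100a6 (-0.59 to 0.97). The precision is limited by the number of arrays, and a missed threshold does not show equal levels. Single arrays and settings decide these calls: without wild-type replicate 3, S100a10 (0.98, adjusted p = 0.0383) and Anxa6 (-0.64, 0.0347) passed, and without wild-type replicate 2, Anxa5 (-0.78, 0.0370) and S100a11 (-0.82, 0.0431) passed. Over 18 alternatives the adjusted p ran from 0.0282 to 0.189 for S100a10, 0.0347 to 0.214 for Anxa6 and 0.0370 to 0.248 for Anxa5. For S100a4, with no filter on probes, the difference was 0.65 (interval -0.53 to 1.83, adjusted p = 0.648).

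The rest of both families was read beside the members. Of the 6 other annexins on the array only Anxa11 was measured, and it was not called after CCl4 (-0.19 ± 0.15, limma adjusted p = 0.337). Anxa7, Anxa8, Anxa10 and Anxa13 were detected on 0 arrays and Anxa9 on 2. Of 12 other S100 genes on the array, a list that includes the binding protein S100pbp, 6 were measured, and 2 rose and 2 fell, beside 18.9% and 18.6% of all tested genes. S100a8 and S100a9, which make up calprotectin of neutrophils, rose by 2.55 ± 0.39 and 2.56 ± 0.43 (adjusted p = 0.000528 and 0.000853). S100a1, best known from muscle, fell by 0.64 (adjusted p = 0.0197) and S100a14, of epithelia, fell by 0.80 (0.00202), with its probe not well above background on any wild-type CCl4 array. S100a13 at -0.07 and S100a16 at -0.13 were not called. Between genotypes after CCl4, 0 of these 7 genes passed.

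**Figure D4:**
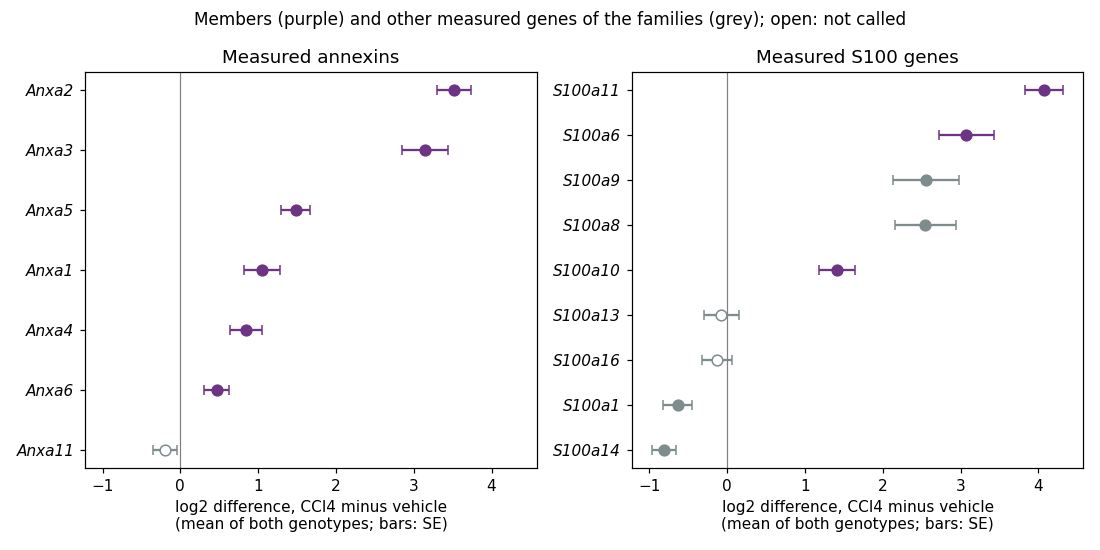
Log2 difference of CCl4 minus vehicle, mean of both genotypes (horizontal axis), for the 7 measured annexins and 9 measured S100 genes, with SE as bars. Members are purple, other genes of the families grey, and open points were not called. Of the annexins Anxa11 alone lies below 0, at -0.19, and the S100 genes run from -0.80 for S100a14 to 4.07 for S100a11.

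In the RefSeq gene order of mouse chromosome 3, S100 genes form a run in which S100a1, S100a13, S100a14 and S100a16 come first, S100a4 and S100a6 lie further along, and S100a8, S100a9 and, 1 gene further, S100a7l2 come last. S100a11 and S100a10 are neighbours of each other, with 54 protein-coding genes between S100a7l2 and them. The measured S100 genes at its start (S100a1, S100a13, S100a14 and S100a16) had differences after CCl4 from -0.80 to -0.07, and S100a6, S100a8, S100a9, S100a11 and S100a10 had differences from 1.41 to 4.07. The annexin members lie on chromosomes other than 3, apart from Anxa5.

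Partners and receptors of annexins and S100 proteins made up a list of 16 genes, of which 15 were on the array and 9 measured. After CCl4 5 of these rose and 0 fell, beside 18.9% and 18.6% of all tested genes, with a median of 0.75 beside -0.02. Plau and Plaur passed the filter through CCl4 arrays alone, and of the 6 detected on all 8 arrays 3 rose, beside 16.6% of such genes. Plau and Plaur, the urokinase protease and its receptor, which act in the plasminogen system that Anxa2 with S100a10 serves, rose by 1.58 ± 0.19 and 0.96 ± 0.17 (limma adjusted p = 9.44e-05 and 0.00142). Neither was well above background on a vehicle array, and their folds were at least 1.73-fold and at least 1.00-fold higher. Myh9, the nonmuscle myosin heavy chain that S100a4 binds, rose by 0.96 ± 0.19 (0.00263), and Sri, the calcium sensor sorcin, by 0.75 ± 0.18 (0.00738). Fpr2, the formyl peptide receptor through which Anxa1 acts on leukocytes, rose by 0.49 ± 0.18 (0.0493). Ahnak, a scaffold of Anxa2 with S100a10, was at 0.80 (0.0537), Cacybp, which binds S100a6, at -0.43 (0.197), Plg at -0.30 (0.172) and Plgrkt at 0.09 (0.695), all not called. Plau and Plaur rose in each genotype and Myh9 in the wild type, and 0 of 9 passed between genotypes after CCl4.

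Markers of other cell types moved with CCl4 in the same arrays. In these lists, rises and falls after CCl4 are for the mean of both genotypes. The summed normalized intensity of 12 measured monocyte and macrophage markers was 11608 to 14505 in knockout CCl4 livers and 11709 to 17503 in wild-type CCl4 livers, against 7651 in the knockout and 6473 in the wild type after vehicle. Of them 6 rose (Cd14, Cd63, Lgals3, Tyrobp, Ly6c1 and Trem2) and 0 fell, beside 18.9% and 18.6% of all tested genes. Not called were Lyz2 (0.23), Lyz1 (0.38), Adgre1 (0.20), Fcgr3 (0.58), Ctss (0.21) and Gpnmb (0.40). A sum follows its brightest probes, and of the 6 that rose Cd63 (3.98) and Lgals3 (2.06) were the brightest after CCl4. Ly6c1 and Trem2 were detected on CCl4 arrays alone, so they passed the filter through the groups where they are high. Of the 7 markers detected on all 8 arrays 2 rose, beside 16.6% of such genes, and Itgam, Ccr2 and Fcer1g were detected on 0 arrays. Neutrophil markers that passed the filter were S100a8, S100a9, Retnlg and Csf3r, and each rose, but Retnlg and Csf3r were detected on CCl4 arrays alone. The 2 detected on all 8 arrays, S100a8 and S100a9, are those described above. The summed level of the 4 was 1979 to 7691 in knockout CCl4 livers and 2040 to 2763 in wild-type CCl4 livers, against 666 in the knockout and 532 in the wild type after vehicle, with Elane, Ngp and Cxcr2 on 0 arrays.

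Of 11 stellate cell and myofibroblast markers 8 rose (Acta2, Des, Col1a1, Col3a1, Timp1, Lum, Sparc and Cygb), beside 18.9% of all tested genes. Lrat, of the resting stellate cell, fell, beside 18.6%. Timp1 was detected on CCl4 arrays alone and Col1a1 on the wild-type CCl4 arrays alone, so the filter favoured a rise in both. The median log2 difference of the 11 was 0.25 in the knockout and 1.30 in the wild type, with 1 vehicle array each. Col1a1 was at -0.29 in the knockout and 1.82 in the wild type, and Acta2 at 3.74 and 3.58. Of the 7 markers detected on all 8 arrays 5 rose and 0 fell, beside 16.6% and 17.3% of such genes. The sum of the 11 was 10095 to 10444 in knockout CCl4 livers and 12067 to 15369 in wild-type CCl4 livers, against 9164 in the knockout and 7914 in the wild type after vehicle, and Col1a2 was on 0 arrays. Kupffer cell markers, all 8 of them detected on every array, rose in 2 of 8 (C1qc and Cd163), beside 16.6% of such genes. Their median difference was -0.05 in the knockout and 0.68 in the wild type. C1qc was at -0.03 in the knockout and 1.18 in the wild type, and Cd163 at 0.48 and 0.62. The Kupffer sums were 3598 to 4208 in knockout CCl4 livers and 4458 to 5714 in wild-type CCl4 livers, against 4195 in the knockout and 3161 in the wild type after vehicle, and Cd5l was on 0 arrays. Sinusoidal endothelium markers rose in 3 of 8 (Stab1, Lyve1 and Fcgr2b), beside 18.9% of all tested genes. Lyve1 was not detected on the wild-type vehicle array, and of the 6 detected on all 8 arrays 2 rose, beside 16.6% of such genes. The sums were 6219 to 6516 in knockout CCl4 livers and 7325 to 8695 in wild-type CCl4 livers, against 4898 in the knockout and 6286 in the wild type after vehicle, and Cdh5 and Kdr were on 0 arrays. The sums of these 3 lists were lower in every knockout CCl4 array than in every wild-type one. Anxa5, Anxa6 and 16.3% of all tested genes were lower in this way, and S100a10 was higher. Such sums follow the brightest probes, among them Dcn and Clec4g (12.05 and 12.04 in the wild-type vehicle liver). Gene by gene, Acta2, Des, Col3a1, Timp1, Sparc, Vsig4, Timd4, Cd163, Folr2, Stab1, Fcgr2b, Oit3 and Egfl7 overlapped between genotypes. The other measured genes of these lists were lower in the knockout without overlap. Between genotypes after CCl4, 1 of 11 stellate (Col1a1) and 1 of 12 macrophage markers (Gpnmb) were called lower in the knockout. So were 1 of 8 Kupffer (C1qb) and 2 of 8 endothelium markers (Stab2 and Lyve1), beside 3.6% of all tested genes, and 0 were called higher. Col1a1 (-1.46) and Gpnmb (-1.12) were detected on 0 knockout CCl4 arrays and passed the filter through wild-type arrays. Among markers detected on all 8 arrays, 0 of 7 stellate, 1 of 8 Kupffer, 1 of 6 endothelium and 0 of 7 macrophage markers were lower, beside 2.56% of such genes.

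Of the listed cholangiocyte and progenitor markers only Cdh1 was measured, and 1 gene cannot stand for these cells. Cdh1 rose by 1.30, with normalized intensities of 604 to 750 in knockout CCl4 livers and 668 to 1368 in wild-type CCl4 livers, against 397 in the knockout and 262 in the wild type after vehicle. Krt7, Krt19, Prom1 and Onecut1 were detected on 0 arrays, and Sox9, detected on 4, did not pass the filter. The 1 measured mesothelium marker, Upk3b, fell and was not well above background after CCl4. Hepatocyte markers fell in 5 of 12 (Cyp2e1, Cyp2f2, Cyp1a2, Glul and Pck1) and rose in 0, beside 18.6% and 18.9% of all tested genes. Glul was detected on the vehicle arrays alone, so the filter favoured a fall. Of the 9 detected on all 8 arrays 3 fell and 0 rose, beside 17.3% and 16.6% of such genes. The sums were 71888 to 76173 in knockout CCl4 livers and 72520 to 97068 in wild-type CCl4 livers, against 107639 in the knockout and 86241 in the wild type after vehicle. The part of these cell types in the values of the members was not tested.

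Likeness across the 8 arrays was described by the root mean square difference of log2 values after centring each gene on its mean, over 7257 genes. The nearest genes were Lgals1 (0.219), Timp1 (0.220) and Apoa4 (0.238) for Anxa2, and Cd63 (0.223), Golm1 (0.266) and Lgals1 (0.291) for S100a11. Anxa3 had Apoa4 (0.259), Anxa2 (0.277) and S100a6 (0.283) nearest, and S100a6 had Anxa3 (0.283), Apoa4 (0.313) and Hilpda (0.334), so Anxa3 had both Anxa2 and S100a6 among its nearest genes. S100a10 had Btg3 (0.129), Banf1 (0.201) and Upp1 (0.232) nearest, and its nearest member, Anxa1, ranked 566th of 7256. Only Anxa3 and S100a6 had a member among their 3 nearest genes. The nearest member ranked 1194th for Anxa6, 462nd for Anxa1, 406th for Anxa4, 72nd for Anxa5, 6th for Anxa2 and 5th for S100a11. The members with smaller changes had Cdh1, Il33 and Rrbp1 (0.124 to 0.163) nearest to Anxa5 and Nomo1, Steap2 and Coro1c (0.130 to 0.145) nearest to Anxa4. Tgfb1, Ap2s1 and Khdrbs1 (0.0906 to 0.102) were nearest to Anxa6, and Tyrobp, Nupr1 and Sgcb (0.162 to 0.189) nearest to Anxa1. The measure is smaller by construction for genes that vary little, so its values are not to be compared between members.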

How the data were processed

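Liver RNA of 8 samples was hybridised to Illumina bead arrays as biotinylated cRNA. The deposited raw table holds, per the file headers, 1 bead intensity per probe and array, not normalized between arrays, beside a deposited detection p-value. The authors' deposited value table equals that intensity less a number fixed for each array (48.6 to 56.8, medians 12.3 to 20.0), is linear and runs in the same direction, and served only as an alternative. The scanner software, the reason for the constants and the genome build of the probes are not given in the sources used here.

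Background correction and quantile normalization used neqc (limma 3.58.1, R 4.3.3, offset 16), which inferred the negative controls through the detection p-values. Of 25697 probes, 10128 passed the detection filter, and 7257 genes were each represented by their brightest probe on average. Symbols came from the platform annotation: 23978 probes have 1 symbol and 1719 none, 23962 matched RefSeq of GRCm38.p6, and 0 symbols changed. lmFit and eBayes fitted 4 group means to all 8 arrays (4 residual and 7.2 prior degrees of freedom), 2-sided, with Benjamini-Hochberg adjustment and a threshold of 0.05. The residual spread comes from the CCl4 arrays, and each lone vehicle array is assumed to vary like them. Simulated data were also run through the fit. Their vehicle arrays were given the spread of the CCl4 arrays, so they do not check this assumption. For the 2 vehicle arrays only values are given.

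The members, gene lists and motifs were chosen with earlier results of these data known. Named were all members, the other measured family genes, and the 3 nearest genes of each member. List genes were named where they passed the threshold for the mean of both genotypes or between genotypes after CCl4. List genes past it only within a genotype were not all named. Promoter sequences are RefSeq's, and sequences of Anxa3, Anxa6 and S100a10 were not used here.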

Additional observations from a re-analysis of the deposited data

Results flagged for a closer look

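Plgrkt, a plasminogen receptor, lay higher than its vehicle array on every knockout CCl4 array (8.68, 8.63 and 8.53, against 8.04 after vehicle) and lower on every wild-type CCl4 array (8.17, 8.05 and 8.40, against 8.61). The difference between the responses, 0.99, did not pass the interaction test of limma (adjusted p = 0.137). Pdcd6ip, or ALIX, which recruits the ESCRT machinery that cuts off torn membrane, went the other way: it was lower than vehicle on every knockout CCl4 array (5.55, 5.89 and 5.89, against 6.37) and higher on every wild-type CCl4 array (6.81, 6.34 and 6.08, against 5.29). Its difference was -1.71 (adjusted p = 0.0809), and it was detected on 5 of 8 arrays. Each value rests on 1 vehicle array per genotype. Opposite directions of this kind are common against lone vehicle arrays: 949 of the 7257 tested genes (13.1%) and 8 of the 91 listed genes showed them, and 0 of the 9 tested members did.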

How the results depend on the processing

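Of the member values, 146 of 153 under the alternatives kept their side of the threshold for CCl4 as the mean of both genotypes, 144 of 153 in the wild type, 148 of 153 in the knockout, 148 of 162 for the genotypes after CCl4 and 135 of 135 for the interaction, and 0 changed sign while called. Some of these were fixed in advance, because a lone vehicle array adds nothing to the residual spread. Leaving out the vehicle array of the other genotype returned the same fit for the response of a genotype. For the genotypes after CCl4, so did leaving out either vehicle array or using only the arrays compared. The counts of members that differed between genotypes moved: 1 was higher, in place of 0, with median scaling, no background correction, an offset of 50, eBayes with trend and robust, or a replicate block (S100a10, 0.82, adjusted p = 0.0282 with the block). Lower members numbered 1 with median scaling, no background correction or an offset of 50 and 2 with eBayes with trend and robust. Leaving out 1 array gave 0 to 1 higher and 0 to 2 lower. Over all genes that comparison had 210 higher and 261 lower, against 172 and 706 with median scaling, which shifts the median gene by -0.16, 41 and 66 with no probe filter, and 68 and 103 from the deposited value table. It had 449 and 346 without wild-type replicate 3, 133 and 147 without replicate 2, 41 and 88 without replicate 1, and 41 to 52 and 75 to 81 without a knockout array. For CCl4 in the wild type, median scaling gave 1152 and 653 in place of 897 and 845, with the median gene up by 0.11, and for the mean of both genotypes 1569 and 1092 in place of 1370 and 1352. Leaving out a vehicle array reduced these to 941 and 928 or 897 and 845. With no probe filter the wild-type calls of Anxa1 (adjusted p = 0.0889), Anxa4 (0.0525) and S100a10 (0.112) were lost, as was Anxa5 in the knockout (0.0792). From the authors' processed values S100a10 in the wild type (0.0626) and Anxa5 in the knockout (0.0536) were lost, and with only the arrays compared S100a10 in the wild type (0.0516). Anxa1 was 0.68 with no background correction or an offset of 50, and remained called. The labels do not state what a replicate number shares. Deviations of same-numbered CCl4 arrays from their group means had correlations of -0.122, -0.110 and -0.0130, which cannot show whether the numbers pair samples. With the block Anxa6 lost its calls for CCl4 (limma adjusted p = 0.173) and in the wild type (0.0509). No slide was given, so a slide block was not run. The cause of these changes was not tested. Anxa1 and S100a4 are limited by background, where signal gives bounds only.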

Other observations

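Plasma membrane repair genes outside both families were read from a list of 18, of which 17 were on the array and 11 measured. After CCl4, as the mean of both genotypes, 1 rose and 2 fell, shares no larger than the 18.9% and 18.6% of all tested genes, with a median of -0.07 beside -0.02 over all tested genes. Capns1, the small subunit of the calpains that clear the cortex under a wound, rose by 0.60 ± 0.17 (limma adjusted p = 0.0154). Its values were 8.77, 9.15 and 9.04 in knockout livers after CCl4 and 9.49, 9.18 and 9.46 in wild-type livers after CCl4, against 8.93 in the knockout and 8.23 in the wild type after vehicle. Vps4b, the ATPase that takes ESCRT filaments apart, fell by 0.75 (adjusted p = 0.00234), and Chmp3, a filament subunit, fell by 0.60 (0.0286). In the wild type the difference was 1.14 for Capns1, 1.12 for Pdcd6ip (at least 1.21-fold higher) and -1.02 for Vps4b. In the knockout it was 0.06 for Capns1, -0.59 for Pdcd6ip and -0.49 for Vps4b. These values rest on 1 vehicle array per genotype, and the responses of these genes did not pass the interaction test. Dysf, Pdcd6, Chmp4c, Ehd2, Trim72 and Syt7 were detected on 0 arrays. Between genotypes after CCl4, 0 of 11 passed.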
